A study of Homo sapiens with 36 samples.

Results

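LCE1F, DCSTAMP, ATP6V0D2, CST1, CST4 and AADAC are genes of other tissues that were nearly absent from proliferating human lung fibroblasts and present once the fibroblasts were senescent. These 6 genes were chosen from the counts themselves, by their names and by that difference, out of 57232 genes in the count table. The rule sets no numerical threshold. The difference between senescent and proliferating cells is therefore given below as a description, with no test. Digoxin and ouabain, the caspase inhibitor and the time points were not part of the rule, and those comparisons were tested. The senescent vehicle libraries served both the rule and each comparison of a drug with vehicle.

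The cells were IMR90 ER:RAS, a line of human lung fibroblasts with a RAS protein joined to the ligand-binding part of the oestrogen receptor. The ligand 4OHT (4-hydroxytamoxifen) activates this RAS, and the cells become senescent. mRNA was sequenced from 36 libraries in 12 groups of 3. All cells, proliferating ones included, carried the ER:RAS construct, were at passage 14 and were kept in DMEM with 10% FBS for 6 days, with fresh medium on day 3. The study asked how senescent cells respond to digoxin and ouabain, cardiac glycosides that block the sodium pump. Proliferating cells received no 4OHT and vehicle for 16 h, for 36 h, or for 36 h together with a caspase inhibitor. Senescent cells received 100 nM 4OHT and then vehicle, digoxin or ouabain on the same 3 schedules. The labels describe the inhibitor as an overnight treatment and give no dose for it, for digoxin or for ouabain. No proliferating cells received a drug, and every senescent group carried activated RAS as well as senescence. Nothing in the labels tells if replicates were cultured separately, and p-values therefore reflect only the spread between these libraries.

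In their usual tissues these genes serve unrelated ends. Late cornified envelope proteins such as LCE1F are laid down under the membrane of dying keratinocytes and give the skin surface its toughness. DCSTAMP is a membrane protein that mouse osteoclast precursors need to fuse, and ATP6V0D2 is an isoform of the d subunit of the V-ATPase, the proton pump of lysosomes, that is abundant in osteoclasts. CST1 and CST4 encode the secreted cystatins SN and S, inhibitors of cysteine proteases found in saliva and tears. AADAC is an esterase of liver and intestine that hydrolyses drugs and lipids.

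The stretches before the start sites of LCE1F and AADAC are shown because both genes were silent or nearly so in the proliferating cells. They are the 250 bases upstream of the annotated start in RefSeq, build GRCh38.p14, on the plus strand, at chr1:152774890-152775139 for LCE1F and chr3:151813866-151814115 for AADAC. The table used held 2 of the 6 genes. Capitals mark matches to GGAAA, the core of NFAT sites, read here from the minus strand as TTTCC, and to AGATAA, a motif of the GATA factors.
LCE1F: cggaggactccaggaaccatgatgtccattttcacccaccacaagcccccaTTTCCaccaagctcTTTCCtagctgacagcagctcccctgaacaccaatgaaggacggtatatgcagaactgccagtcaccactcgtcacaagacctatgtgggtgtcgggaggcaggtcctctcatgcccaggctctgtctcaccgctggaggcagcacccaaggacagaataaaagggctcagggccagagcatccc
AADAC: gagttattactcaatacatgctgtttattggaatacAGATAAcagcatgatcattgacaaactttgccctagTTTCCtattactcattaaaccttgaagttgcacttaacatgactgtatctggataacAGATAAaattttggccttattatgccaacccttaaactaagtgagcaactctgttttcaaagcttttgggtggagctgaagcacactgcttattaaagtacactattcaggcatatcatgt
Counted back from the start, with -1 for the base before it, LCE1F held GGAAA on the minus strand at -199 and -185. AADAC held GGAAA on the minus strand at -178 and AGATAA on the plus strand at -214 and -121. Among 27305 promoters of the same length, 56.0% held GGAAA and 9.37% held AGATAA on either strand. Neither window held the AP-1 motif TGANTCA, the E-box CACGTG or the TATA box TATAAA, which 6.6%, 6.49% and 11.1% of promoters held. Only these exact letters were sought, so near matches, TATA-like stretches included, were not counted. A match of letters does not show a bound site.

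The libraries held 10854351 to 21446415 counts. All levels below are CPM, the count of a gene relative to its library total after scaling by the trimmed mean of M values (TMM) and in the unit usual for RNA-seq, unless a raw count is named. MKI67, a marker of dividing cells, lay at 37.4 to 123 CPM in proliferating and at 0.837 to 2.78 CPM in senescent vehicle libraries. HRAS, a RAS gene, lay at 412 to 621 and at 1020 to 1360 CPM in these libraries. In drug-treated libraries MKI67 lay at 0.238 to 2.22 CPM and HRAS at 2450 to 5190 CPM. Whether the counts of HRAS include reads of the construct is not known, and its part in the drug comparisons was not tested. All 15 fibroblast markers examined were at 1 CPM or more in every class of groups, with summed levels of 25600 to 34100 CPM in proliferating, 19500 to 22200 CPM in senescent vehicle and 10800 to 25900 CPM in drug-treated libraries. Replicate 2 of proliferating cells at 16 h and replicate 2 of ouabain at 16 h stood apart most from the other libraries of their groups, with median absolute log2 differences of 0.375 and 0.271.

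Markers of the tissues these genes belong to were examined in the same libraries. Of 15 keratinocyte markers, 3 reached 1 CPM in proliferating, 2 in senescent vehicle and 4 in drug-treated cells, and the summed levels were 19.3 to 26.3, 22.8 to 33.5 and 44.1 to 60.6 CPM. KRT10, a keratin of the upper epidermis, made up most of that sum, at 19.2 ± 2.13 CPM (SD, n = 3) in proliferating and 23.2 ± 1.26 CPM in senescent vehicle cells at 16 h, and at 53.4 ± 0.547 CPM with digoxin. KRT15, a keratin of basal keratinocytes, stood at 1.97 ± 0.338 CPM in proliferating and 6.92 ± 0.0987 CPM in senescent vehicle cells at 16 h, with no overlap at any of the 3 schedules, whereas KRT14, another basal keratin, had 0 counts in all proliferating and senescent vehicle libraries. Since fewer markers reached 1 CPM in senescent vehicle than in proliferating cells, a marker other than KRT10 and KRT15 went the other way. SFN, an epithelial 14-3-3 protein also called stratifin, had 1 count in the senescent vehicle libraries of 36 h and stood at 4.16 ± 0.629 CPM with digoxin and 6.32 ± 0.862 CPM with ouabain. Of 12 osteoclast and macrophage markers, 1 reached 1 CPM in proliferating and senescent vehicle cells and 4 in drug-treated cells, with sums of 2.25 to 3.45, 2.13 to 3.68 and 5.79 to 11.8 CPM and TYROBP at 0 counts without drug. For 13 salivary gland markers the sums were 1.53 to 3.73, 1.65 to 3.27 and 3.1 to 7.97 CPM, with 0, 1 and 2 of them at 1 CPM and PRH1 at 0 counts throughout. For 13 liver and intestine markers the sums were 0.215 to 1.37, 0.991 to 1.54 and 1.83 to 5.99 CPM, with 0, 0 and 1 of them at 1 CPM. The part of these markers in the results that follow was not tested.

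Across the 9 proliferating libraries the 6 genes gave almost no reads. LCE1F had 0 counts in 8 of them and 1 count in the other. DCSTAMP, CST1 and CST4 had 0 counts in 6, 7 and 6 libraries and never more than 2, and AADAC had 0 counts in 5 and never more than 3. ATP6V0D2 was the least silent, with a highest count of 6 in 1 library and 0 counts in 1 library. All 27 senescent libraries held reads of every gene, the lowest count being 16, for AADAC. All 6 genes passed the filter on low counts, which the senescent groups alone are enough to pass, so they had to differ from proliferating cells.

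LCE1F was counted at 14.2, 11.8 and 11.9 CPM in the 3 senescent vehicle libraries of 16 h, at 11.1, 13.1 and 12.1 CPM at 36 h and at 6.17, 8.45 and 7.22 CPM at 36 h with the inhibitor. All 9 values lay above every proliferating library. With 0 proliferating counts against 756, the level at 16 h was 240-fold higher, taking 3 counts over the group as the floor. The lower 95% counting limit was 193. At 36 h the ratio was 690 on 1 proliferating count (95% counting interval 143 to 31700). With the inhibitor it was 133 on the floor (lower counting limit 109). PCR copies are not counted apart from original molecules, so intervals and floors reflect counting error alone.

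DCSTAMP stood at 5.3, 6.51 and 6.19 CPM at 16 h, at 6.29, 7.87 and 7.66 CPM at 36 h and at 8.98, 8.34 and 9.07 CPM at 36 h with the inhibitor in senescent vehicle cells. Its ratios to proliferating cells were 179 (47.3 to 1430) on 2 counts and 529 (86.2 to 19100) on 1 count. On 0 counts, with the inhibitor, the ratio was 160 on the floor (lower counting limit 130). ATP6V0D2 stood at 7.87, 7.88 and 9.64 CPM, at 8.86, 8.46 and 9.79 CPM and at 11.1, 10.2 and 12.7 CPM in the same groups. Its ratios were 253 (66.6 to 2000), 66.3 (34.7 to 146) and 68.6 (33.5 to 130), on 2, 9 and 10 proliferating counts, and the 3 intervals overlap.

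The cystatins lay close to each other. CST1 was counted at 5.8, 4.72 and 3.21 CPM at 16 h, at 9.79, 8.0 and 9.02 CPM at 36 h and at 7.27, 5.88 and 5.9 CPM at 36 h with the inhibitor. CST4 was counted at 5.86, 3.82 and 3.59 CPM, at 6.35, 6.9 and 7.48 CPM and at 6.51, 5.99 and 5.26 CPM. For CST1 every library of 16 h lay below those of the later vehicle groups, and for CST4 replicate 1 of 16 h overlapped the inhibitor-treated group. CST1 was 86.9-fold above proliferating cells at 16 h on the floor (lower counting limit 69.2). Its ratios were 606 (105 to 23200) and 237 (61.3 to 13600) at 36 h without and with the inhibitor. For CST4 the ratios were 309 (44.1 to 9820), 468 (81.8 to 18100) and 110 (44.2 to 1340).

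AADAC was the rarest of the 6, at 1.4, 1.37 and 1.32 CPM at 16 h, at 2.13, 2.12 and 2.22 CPM at 36 h and at 1.85, 2.18 and 2.49 CPM at 36 h with the inhibitor. Its ratios to proliferating cells were 23.7 (8.54 to 128), 47.9 (15.9 to 233) and 122 (21.1 to 4780). In all 3 pairs of groups every one of the 6 genes was higher in each senescent library than in any proliferating one, which is how they were chosen. Of all 18696 genes tested, 26.8% were separated in that way at 16 h, 31.7% at 36 h and 33.1% at 36 h with the inhibitor, and nothing is read from the comparison with these shares. In bulk RNA, more RNA in each cell and more cells that carry it cannot be told apart.

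**Figure D1:**
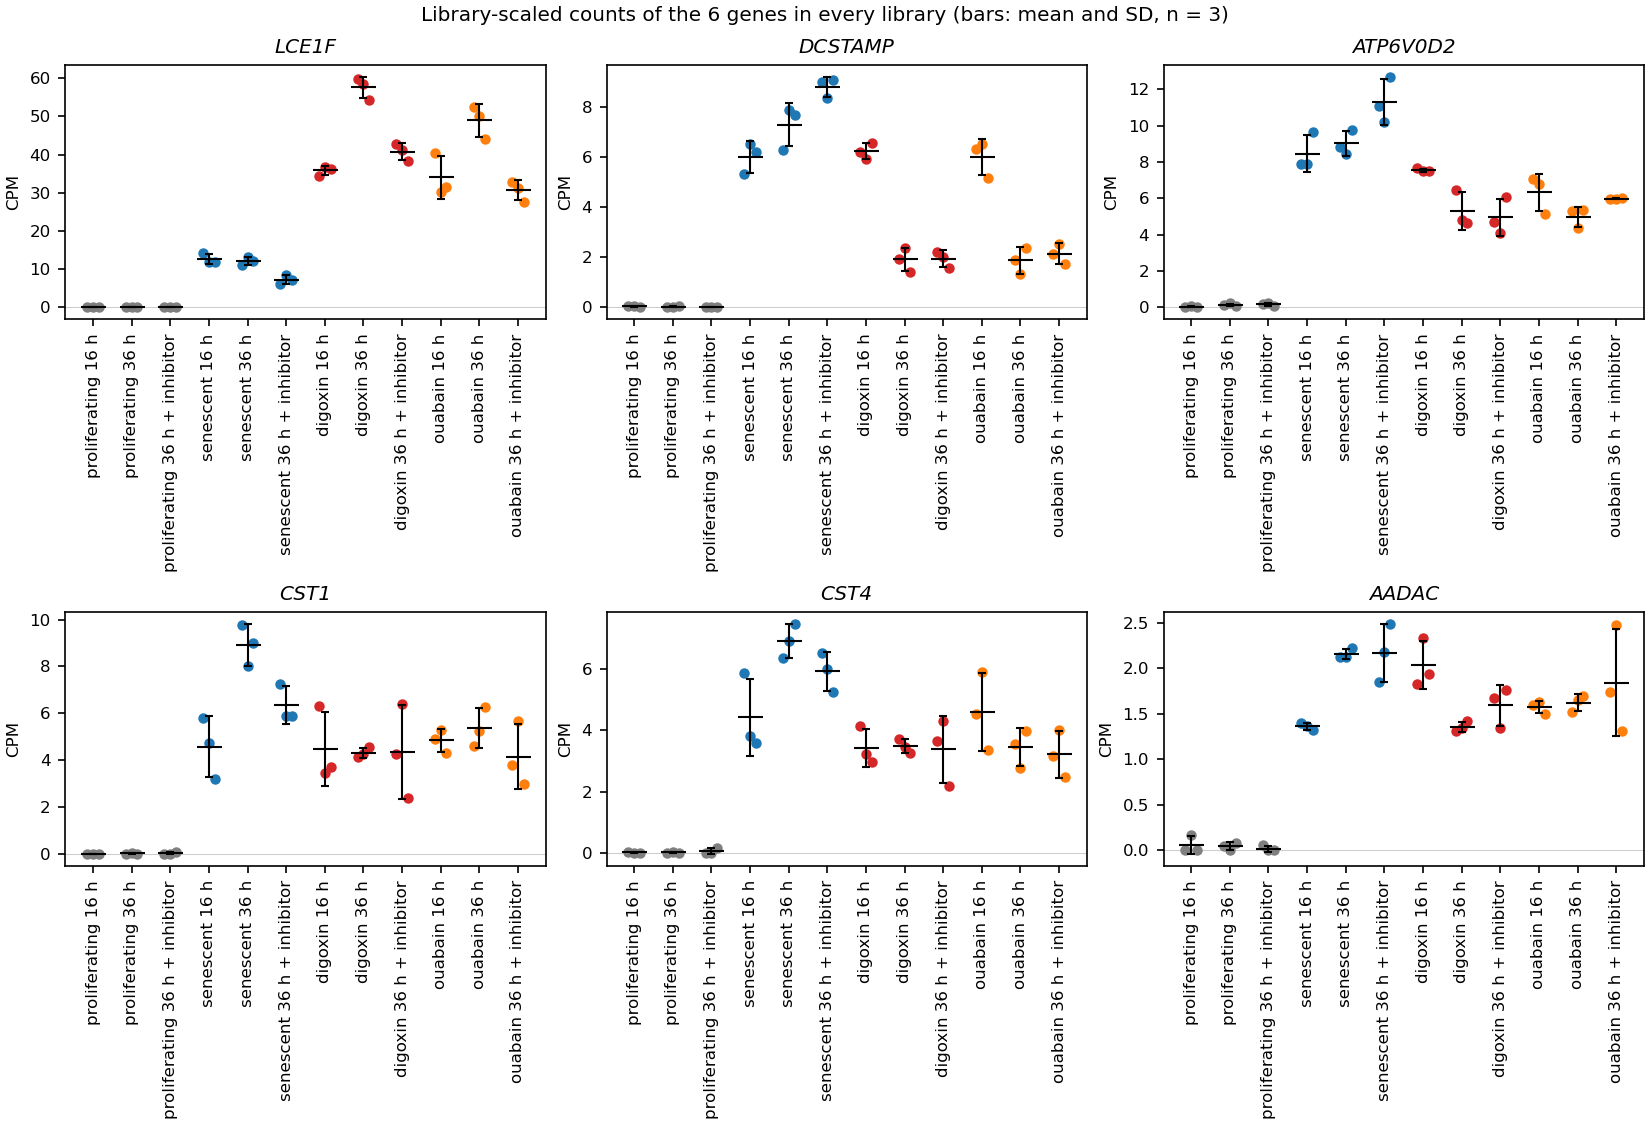
CPM of each gene (vertical axes, linear, one scale per gene) in every library of the 12 groups (points, 3 per group), with group means and SD as black bars. Grey points are proliferating vehicle, blue senescent vehicle, red digoxin and orange ouabain. LCE1F rises from 12.1 CPM with vehicle to 57.6 CPM with digoxin at 36 h, whereas DCSTAMP goes from 7.27 to 1.91 CPM.

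Divided by the summed length of all annotated exons, LCE1F was the most abundant of the 6 in senescent vehicle cells at 16 h. It stood at 35.4 CPM per kilobase, computed over its coding length since its gene model holds no untranslated part. CST4 and CST1 followed at 5.89 and 5.25 CPM per kilobase, then ATP6V0D2 at 2.81, DCSTAMP at 2.16 and AADAC at 0.817 CPM per kilobase. The order of the 2 cystatins depends on the length used. The exons of CST1 cover 872 bases and its aligned transcript 760, while both lengths are 751 for CST4. Whether reads from the untranslated ends of LCE1F were counted is not known.

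LCE1F was the only one of the 6 genes that rose with both drugs at every schedule. After 16 h, the digoxin libraries held 34.5, 36.8 and 36.2 CPM and the ouabain libraries 40.4, 30.2 and 31.4 CPM. Every drug library lay above every vehicle library of that time. The log2 change was 1.51 ± 0.12 (SE, n = 3) with digoxin (adjusted p = 1.37e-12) and 1.43 ± 0.12 with ouabain (adjusted p = 8.71e-12) by edgeR's quasi-likelihood test, a 2.84-fold and a 2.69-fold rise. All adjusted p-values here and below are from that test with Benjamini-Hochberg adjustment over all genes, two-sided, called at 0.05. After 36 h LCE1F reached 59.7, 58.6 and 54.4 CPM with digoxin and 52.4, 50.2 and 44.2 CPM with ouabain, again with no overlap with vehicle. The log2 changes were 2.25 ± 0.12 (adjusted p = 4.7e-17) and 2.02 ± 0.12 (adjusted p = 8.48e-16), or 4.75-fold and 4.04-fold. A rise at least as large was seen in 5.91% of all genes tested with digoxin and 6.39% with ouabain, by log2 change alone.

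DCSTAMP, the fusion protein, overlapped vehicle after 16 h of either drug and was lower with either drug by 36 h. At 16 h it stood at 6.19, 5.92 and 6.55 CPM with digoxin and at 6.32, 6.51 and 5.17 CPM with ouabain, values that overlapped those of vehicle. Its log2 difference from vehicle was 0.05 (95% interval -0.28 to 0.37) with digoxin and its fold was 1.0 with ouabain (log2 interval -0.32 to 0.32), neither called. At 36 h it stood at 1.93, 2.36 and 1.42 CPM with digoxin and at 1.89, 1.33 and 2.38 CPM with ouabain, all below the lowest vehicle library. The log2 changes were -1.93 ± 0.19 (adjusted p = 8.93e-11) and -2.0 ± 0.19 (adjusted p = 3.4e-11), a 3.8-fold and a 4.01-fold fall. Only 3.0% of all genes had a lower log2 change with digoxin at 36 h, and 1.86% with ouabain. Even so, the lowest drug-treated library of DCSTAMP, at 1.33 CPM and 20 counts or more in each library, stayed above the highest proliferating one, at 0.0574 CPM.

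ATP6V0D2, the pump subunit, fell less. After 16 h it stood at 7.66, 7.49 and 7.52 CPM with digoxin and at 7.06, 6.77 and 5.17 CPM with ouabain, all just below the vehicle libraries. The log2 difference was -0.17 (-0.46 to 0.13, adjusted p = 0.334) with digoxin and -0.42 ± 0.15 (adjusted p = 0.0156) with ouabain, of which the second was called. That call was lost without replicate 3 of ouabain (log2 -0.29), without replicate 3 of vehicle (log2 -0.31) and in a fit of the compared groups alone. By 36 h the values were 6.49, 4.8 and 4.62 CPM with digoxin and 5.29, 4.37 and 5.34 CPM with ouabain, without overlap with vehicle. ATP6V0D2 fell by 0.77 ± 0.15 on the log2 scale with digoxin (adjusted p = 3.76e-05) and by 0.86 ± 0.15 with ouabain (adjusted p = 7.13e-06).

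The cystatins showed no called change at 16 h and were lower than vehicle at 36 h. The vehicle means at 16 h and 36 h were 4.58 and 8.94 CPM for CST1 and 4.42 and 6.91 CPM for CST4. With digoxin they were 4.49 and 4.32 CPM for CST1 and 3.43 and 3.48 CPM for CST4. Ouabain gave 4.84 and 5.37 CPM for CST1 and 4.6 and 3.44 CPM for CST4. CST1 stood at 6.31, 3.46 and 3.7 CPM with digoxin and at 4.91, 5.29 and 4.32 CPM with ouabain at 16 h, and CST4 at 4.13, 3.21 and 2.96 CPM and at 4.54, 5.9 and 3.36 CPM. These values overlapped those of vehicle, and replicate 1 of digoxin was the highest of its group for both genes. The log2 intervals were -0.53 to 0.5 (digoxin) and -0.41 to 0.6 (ouabain) for CST1, and -0.83 to 0.12 and -0.37 to 0.53 for CST4. At 36 h CST1 stood at 4.14, 4.25 and 4.55 CPM with digoxin and at 4.61, 5.23 and 6.28 CPM with ouabain, below all vehicle libraries. It was lower than vehicle by 1.05 ± 0.24 on the log2 scale (adjusted p = 0.000329) and by 0.75 ± 0.23 (adjusted p = 0.006). CST4 at 36 h stood at 3.73, 3.44 and 3.27 CPM with digoxin and at 3.56, 2.77 and 3.99 CPM with ouabain, also below all vehicle libraries. It was lower than vehicle by 0.99 ± 0.23 (adjusted p = 0.000263) and by 1.03 ± 0.22 (adjusted p = 0.000161).

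AADAC, the esterase, gave small changes of opposite sign at the 2 times. At 16 h it stood at 1.83, 2.33 and 1.94 CPM with digoxin and at 1.6, 1.63 and 1.5 CPM with ouabain, all above vehicle. The log2 change was 0.57 ± 0.25 with digoxin (adjusted p = 0.0442) and 0.21 with ouabain (-0.3 to 0.73, adjusted p = 0.501). The digoxin call was lost when libraries were scaled by size only (log2 0.26), with no filter on low counts (log2 0.49), and without any 1 of 5 of the 6 libraries, namely replicates 2 and 3 of digoxin and all 3 of vehicle. At 36 h AADAC stood at 1.31, 1.35 and 1.42 CPM with digoxin and at 1.52, 1.65 and 1.7 CPM with ouabain, all below vehicle. It fell by 0.66 ± 0.25 with digoxin (adjusted p = 0.0209), and with ouabain the log2 difference was -0.42 (-0.9 to 0.07, adjusted p = 0.13). The digoxin call at 36 h was lost without replicate 1 or 2 of digoxin or replicate 3 of vehicle, at log2 -0.64 to -0.66, and rests on 19 to 52 counts per library.

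Counted together, 2 of the 6 genes were called higher and 0 lower with digoxin at 16 h, where 59.6% of all genes were called, and 1 higher and 1 lower with ouabain at 16 h, against 53.4% of all genes. At 36 h all 6 were called with digoxin, 1 higher and 5 lower, against 64.0% of all genes called, 31.6% higher and 32.4% lower. With ouabain at 36 h 5 were called, 1 higher and 4 lower, against 61.0% of all genes, 30.2% higher and 30.8% lower. Being called is therefore common in these comparisons. The median log2 change of the 6 genes was -0.88 with digoxin and -0.80 with ouabain at 36 h, and that of all genes -0.02 and 0.00. Both drugs were set against the same vehicle libraries.

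The cells of the 36 h schedule that also received the caspase inhibitor gave the same direction for each gene called. LCE1F stood at 42.7, 41.2 and 38.4 CPM with digoxin and at 32.8, 31.3 and 27.7 CPM with ouabain, far above the inhibitor-treated vehicle libraries. It rose by log2 2.48 ± 0.13 (adjusted p = 3.53e-17) and 2.06 ± 0.13 (adjusted p = 5.13e-15). DCSTAMP stood at 2.22, 2.01 and 1.55 CPM and at 2.14, 2.54 and 1.72 CPM, and fell by 2.18 ± 0.19 (adjusted p = 5.8e-12) and by 2.02 ± 0.19 (adjusted p = 3.43e-11). ATP6V0D2 stood at 4.72, 4.09 and 6.06 CPM and at 5.95, 5.97 and 6.0 CPM, and fell by 1.19 ± 0.15 (adjusted p = 2.53e-08) and by 0.92 ± 0.15 (adjusted p = 2.42e-06). None of these values overlapped those of vehicle.

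CST4 with the inhibitor stood at 3.64, 4.31 and 2.19 CPM with digoxin and at 3.17, 4.0 and 2.46 CPM with ouabain, below vehicle throughout. The log2 differences were -0.81 ± 0.24 (adjusted p = 0.00337) and -0.86 ± 0.24 (adjusted p = 0.00232). CST1 spread widely, at 4.25, 6.39 and 2.4 CPM with digoxin and at 3.81, 5.66 and 2.96 CPM with ouabain. Its log2 difference was -0.55 (-1.07 to -0.03, adjusted p = 0.0616) with digoxin and -0.59 ± 0.26 (adjusted p = 0.0493) with ouabain. The ouabain call was lost with DESeq2's size factors (log2 -0.55), in DESeq2 (log2 -0.56) and without any 1 of 5 of the 6 libraries (log2 -0.40 to -0.64), all but replicate 2 of ouabain. Replicate 2 of each drug was the highest for both cystatins, and without replicate 2 of digoxin CST1 was called with digoxin at log2 -0.92. AADAC stood at 1.68, 1.34 and 1.76 CPM and at 1.74, 2.48 and 1.31 CPM and was called with neither drug. In all, 4 of 6 genes were called with digoxin, against 62.4% of all genes, and 5 of 6 with ouabain, against 59.5%.

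**Figure D2:**
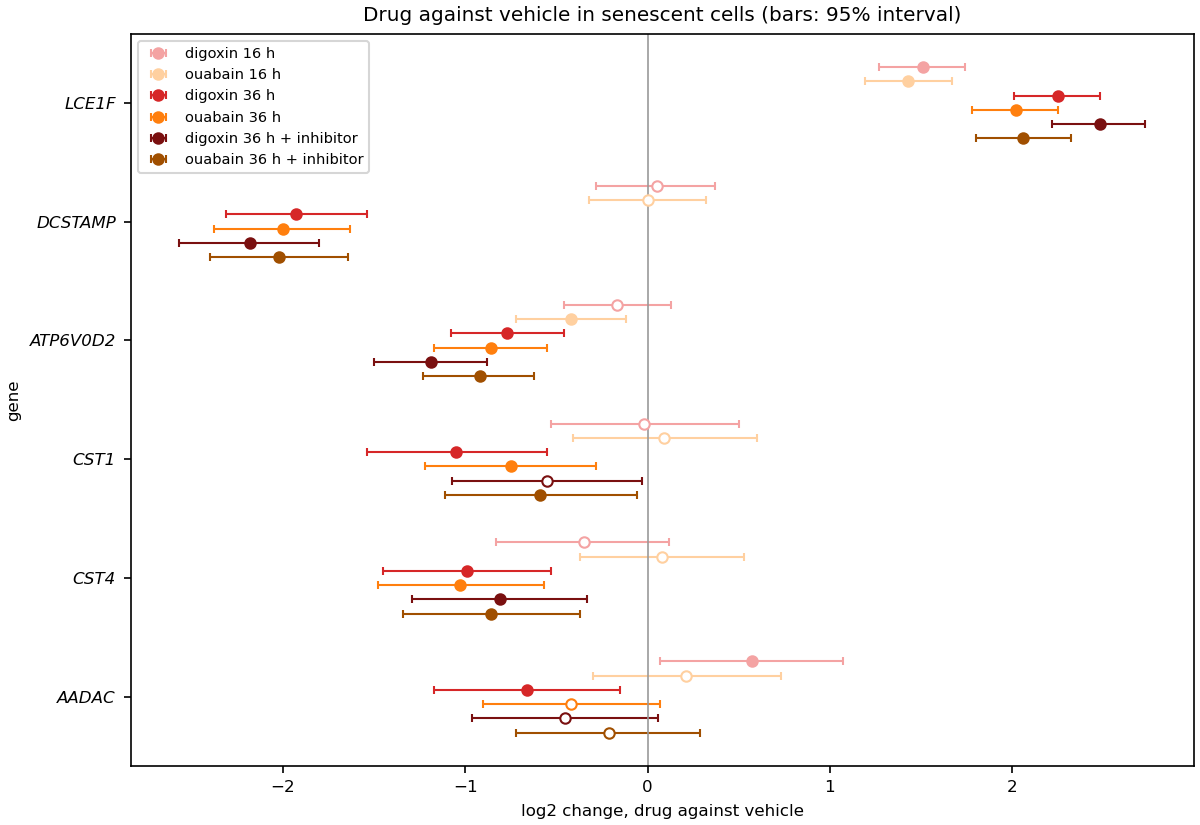
Log2 change of each gene in senescent cells with digoxin or ouabain against vehicle (horizontal axis) at 16 h, 36 h and 36 h with the caspase inhibitor, with 95% intervals as bars. Filled points were called at adjusted p under 0.05, open points were not. LCE1F lies right of 0 at all 6 comparisons, between 1.43 and 2.48, and DCSTAMP lies near 0 at 16 h and at -1.93 to -2.18 later.

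How the drug effects differed between the times was tested directly, as the effect at 36 h minus the effect at 16 h. With digoxin 5 of the 6 genes differed, against 42.7% of all genes. DCSTAMP gave the largest difference of the 6, -1.98 ± 0.25 on the log2 scale (adjusted p = 7.32e-08), followed by AADAC at -1.23 ± 0.35 (adjusted p = 0.0044) and CST1 at -1.03 ± 0.35 (adjusted p = 0.0168). LCE1F differed by 0.74 ± 0.16 (adjusted p = 0.000388) and ATP6V0D2 by -0.60 ± 0.21 (adjusted p = 0.0187). The call of CST1 was lost without replicate 1 of digoxin at 16 h (log2 -0.71) or replicate 3 of vehicle at 16 h (log2 -0.83). That of ATP6V0D2 was lost with no filter (log2 -0.58) and without replicate 2 or 3 of digoxin or replicate 3 of vehicle at 36 h (log2 -0.52 to -0.54).

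With ouabain 3 of the 6 genes differed between the times, against 35.1% of all genes. DCSTAMP differed by -2.0 ± 0.25 (adjusted p = 8.81e-08), CST4 by -1.10 ± 0.32 (adjusted p = 0.00594) and LCE1F by 0.59 ± 0.16 (adjusted p = 0.00505). CST1, at -0.84 ± 0.34 (adjusted p = 0.0527), ATP6V0D2, at -0.44 ± 0.21 (adjusted p = 0.104), and AADAC, at -0.63 ± 0.35 (adjusted p = 0.169), did not pass. Without replicate 3 of ouabain at 16 h CST1 and ATP6V0D2 passed as well.

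Within vehicle, CST1 alone was called between 36 h and 16 h, at log2 0.97 ± 0.23 higher (adjusted p = 0.0212), against 1.54% of all genes. That call was lost without replicate 2 or 3 of 16 h or replicate 1 or 3 of 36 h, at log2 0.77 to 1.00. CST4, at 0.66 ± 0.21 (adjusted p = 0.137), and AADAC, at 0.66 ± 0.24 (adjusted p = 0.216), had separate values at the 2 times but did not pass. Comparing the digoxin libraries with each other, CST1 stood at a mean of 4.49 CPM at 16 h and 4.32 CPM at 36 h (log2 -0.06, -0.59 to 0.48) and CST4 at 3.43 and 3.48 CPM (0.02, -0.48 to 0.53). The 3 genes called between the times with digoxin, against 57.6% of all genes, were LCE1F at 0.68 ± 0.11 (adjusted p = 2.68e-06), DCSTAMP at -1.70 ± 0.19 (adjusted p = 4.64e-09) and ATP6V0D2 at -0.51 ± 0.16 (adjusted p = 0.00572). With ouabain 2 were called, against 50.0% of all genes, LCE1F at 0.53 ± 0.11 (adjusted p = 0.000134) and DCSTAMP at -1.73 ± 0.19 (adjusted p = 4.09e-09).

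Ouabain and digoxin, steroid glycosides of which digoxin carries a chain of digitoxose sugars and ouabain a rhamnose, were compared at each of the 3 schedules. Since the labels give no doses, these may differ. None of the 6 genes was called in any of the 3 pairs, where 4.94% of all genes were called at 16 h, 5.36% at 36 h and 1.45% at 36 h with the inhibitor. Without 1 library the calls over all genes ran from 142 to 1700 around 923 at 16 h, from 394 to 666 against 1003 at 36 h and from 91 to 314 around 271 with the inhibitor. At an unadjusted p under 0.05 in edgeR, 0 of the 6 passed at 16 h and LCE1F alone passed in the other 2 pairs, and DESeq2 called 0, 0 and 1. LCE1F was at a log2 difference of -0.23 (95% interval -0.45 to -0.01, adjusted p = 0.219) at 36 h and of -0.41 (-0.64 to -0.19, adjusted p = 0.0558) at 36 h with the inhibitor, ouabain being the lower. In both pairs all 3 ouabain libraries lay below all 3 digoxin libraries. The second difference was called in DESeq2 (log2 -0.42), with its size factors in edgeR (log2 -0.42) and in a fit of the compared groups alone (log2 -0.41). DCSTAMP differed by -0.08 at 36 h (-0.55 to 0.39), ATP6V0D2 by -0.09 (-0.43 to 0.24), CST1 by 0.30 (-0.23 to 0.83), CST4 by -0.04 (-0.54 to 0.47) and AADAC by 0.25 (-0.3 to 0.79) on the log2 scale. A p that misses the threshold does not show that the drugs act alike, and the interval of CST1 includes a 1.77-fold difference.

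The caspase inhibitor lowered LCE1F in all 3 senescent treatments and gave no call for the other 5 genes. In vehicle cells LCE1F went from a mean of 12.1 ± 1.0 to 7.28 ± 1.14 CPM (SD, n = 3), with no overlap, a log2 change of -0.73 ± 0.13 (adjusted p = 0.000588), where 7.41% of all genes were called. With digoxin it went from 57.6 ± 2.8 to 40.8 ± 2.22 CPM, a log2 change of -0.50 ± 0.11 (adjusted p = 0.0145), where 0.877% of all genes were called. That call was lost without replicate 2 or 3 of digoxin with the inhibitor or replicate 1 or 2 of digoxin alone, at log2 -0.46 to -0.51. With ouabain it went from 48.9 ± 4.26 to 30.6 ± 2.62 CPM, a log2 change of -0.68 ± 0.11 (adjusted p = 0.00013), where 8.89% of all genes were called. Among the other genes, ATP6V0D2 in vehicle cells was at 0.32 ± 0.14 (adjusted p = 0.161) and CST1 at -0.50 ± 0.23 (adjusted p = 0.2), both with separate values in the 2 groups. Those 2 differences were called in a fit of the compared groups alone.

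**Figure D3:**
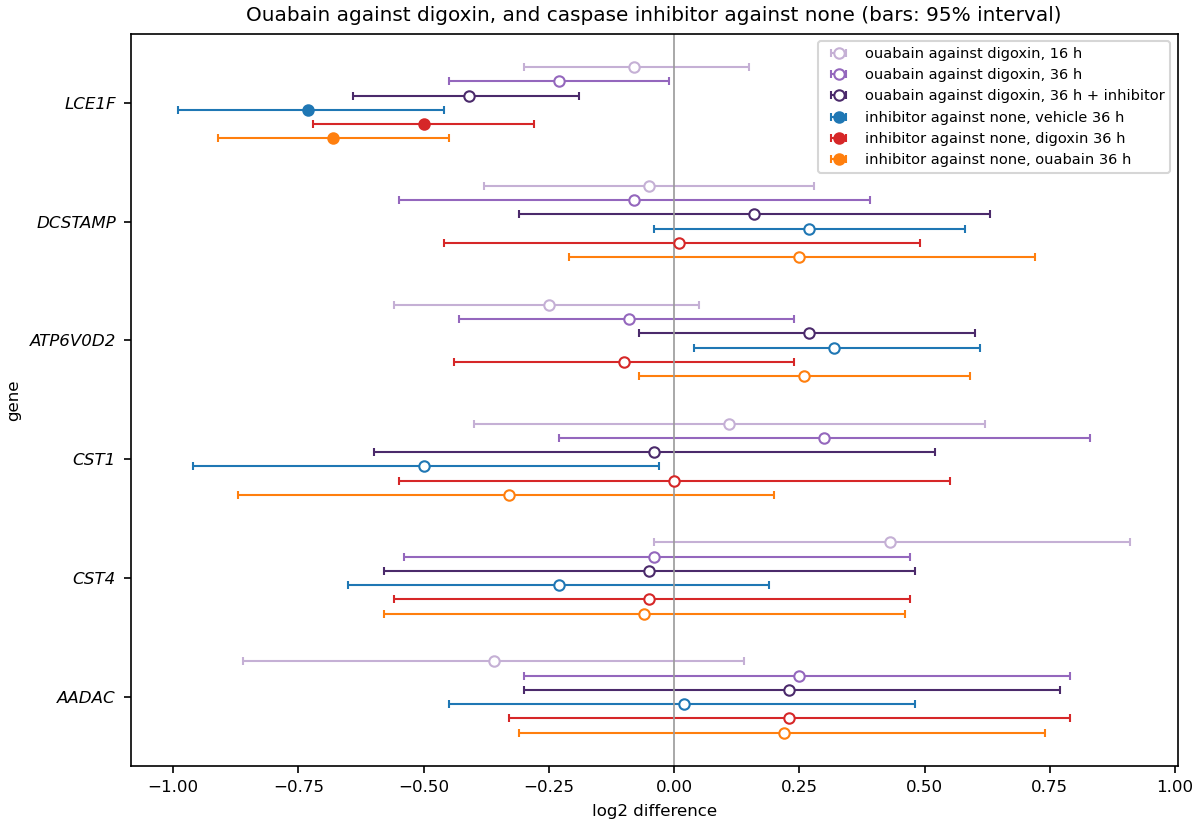
Log2 difference between ouabain and digoxin, and between cells with and without the caspase inhibitor (horizontal axis), for each gene in senescent cells, with 95% intervals as bars. Filled points were called at adjusted p under 0.05, open points were not. The 3 filled points are LCE1F with the inhibitor, at -0.73 with vehicle, -0.50 with digoxin and -0.68 with ouabain.

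In the order of LCE1F's mean CPM over the 12 groups, digoxin at 36 h (57.6 CPM), ouabain at 36 h (48.9 CPM) and digoxin with the inhibitor (40.8 CPM) each stood above the next with no overlapping library. Digoxin at 16 h, ouabain at 16 h and ouabain with the inhibitor, at 35.8, 34.0 and 30.6 CPM, overlapped their neighbours. Senescent vehicle cells came next and proliferating cells last. DCSTAMP had the inhibitor-treated vehicle cells on top at 8.8 CPM, then 4 overlapping groups from 7.27 down to 6.0 CPM, then the 4 drug groups of 36 h, overlapping at 2.14 to 1.87 CPM. ATP6V0D2 ran from 11.3 CPM in the inhibitor-treated vehicle cells to 4.96 CPM with digoxin and the inhibitor, and its last 5 senescent groups, from ouabain at 16 h (6.33 CPM) down, overlapped in turn. For CST1 the senescent vehicle cells of 36 h, at 8.94 CPM, stood apart and the other 8 senescent groups overlapped in turn from 6.35 to 4.14 CPM. The 9 senescent groups of CST4 overlapped in turn from 6.91 to 3.21 CPM. AADAC overlapped in turn from 2.17 to 1.58 CPM, and senescent vehicle at 16 h and digoxin at 36 h, both at 1.36 CPM, formed the bottom of its order.

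The wider families were described with lists of genes taken by function, with the 6 genes themselves left out. Of 47 cornified envelope genes, 46 were matched, 19 never exceeded 3 counts in any library and 13 passed the filter. In senescent against proliferating cells at 16 h 6 of the 13 were called higher and 1 lower, with a median log2 change of 2.82 (2.61 with genes at 0 counts in a group set to their bound) against 0.01 for all genes, of which 26.4% were called higher and 25.2% lower. Of the 13, 9 had at most 3 counts in the proliferating group, and those that passed the filter only through groups where they are high had to differ, so nothing is read from this count or median. For the same reason the genes named next are described without p-values. IVL, the involucrin scaffold of the envelope, stood at 2.71 ± 0.679 against 0.0491 ± 0.0443 CPM (SD, n = 3), a ratio of 55.2 on 3 proliferating counts (17.6 to 256). LCE2A and LCE2C, relatives of LCE1F that resemble each other and can share reads, were higher by log2 3.28 ± 0.26 (SE) and 3.96 ± 0.51 (SE), at 5.51 and 1.2 CPM. PPL, the desmosomal plaque protein periplakin, went the other way, from 1.34 ± 0.464 to 0.0816 ± 0.0523 CPM (SD), a log2 change of -3.86 ± 0.55 (SE).

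With digoxin at 36 h 12 of the 13 cornified envelope genes rose and 1 fell, with a median log2 change of 3.58 (3.58 with bounds). Of all genes 31.6% rose and 32.4% fell, with a median of -0.02. With ouabain 12 rose and 0 fell, with a median of 3.12 (3.12 with bounds), against 30.2% and 30.8% of all genes and a median of -0.002. Of the 13, 3 had at most 3 counts in the vehicle group of 36 h and passed the filter only through other groups, where they are higher. Others with few vehicle counts may have passed in the same way, so nothing is read from these counts or medians. At 16 h 2 rose and 2 fell with either drug, where 59.6% of all genes were called with digoxin and 53.4% with ouabain. PI3, the protease inhibitor elafin, named here after its values were seen, went from 1.31 ± 0.0662 CPM with vehicle to 93.9 ± 5.94 CPM with digoxin and 79.5 ± 4.78 CPM with ouabain at 36 h. IVL went from 2.23 ± 0.474 to 15.2 ± 1.72 and 16.4 ± 0.68 CPM, a log2 rise of 2.78 ± 0.18 (adjusted p = 1.62e-14) and 2.89 ± 0.18 (adjusted p = 6.84e-15). LCE2A rose by log2 1.80 and 1.74, slightly less than LCE1F. The summed keratinocyte markers given above were also higher in the drug-treated libraries, and their part was not tested.

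**Figure D4:**
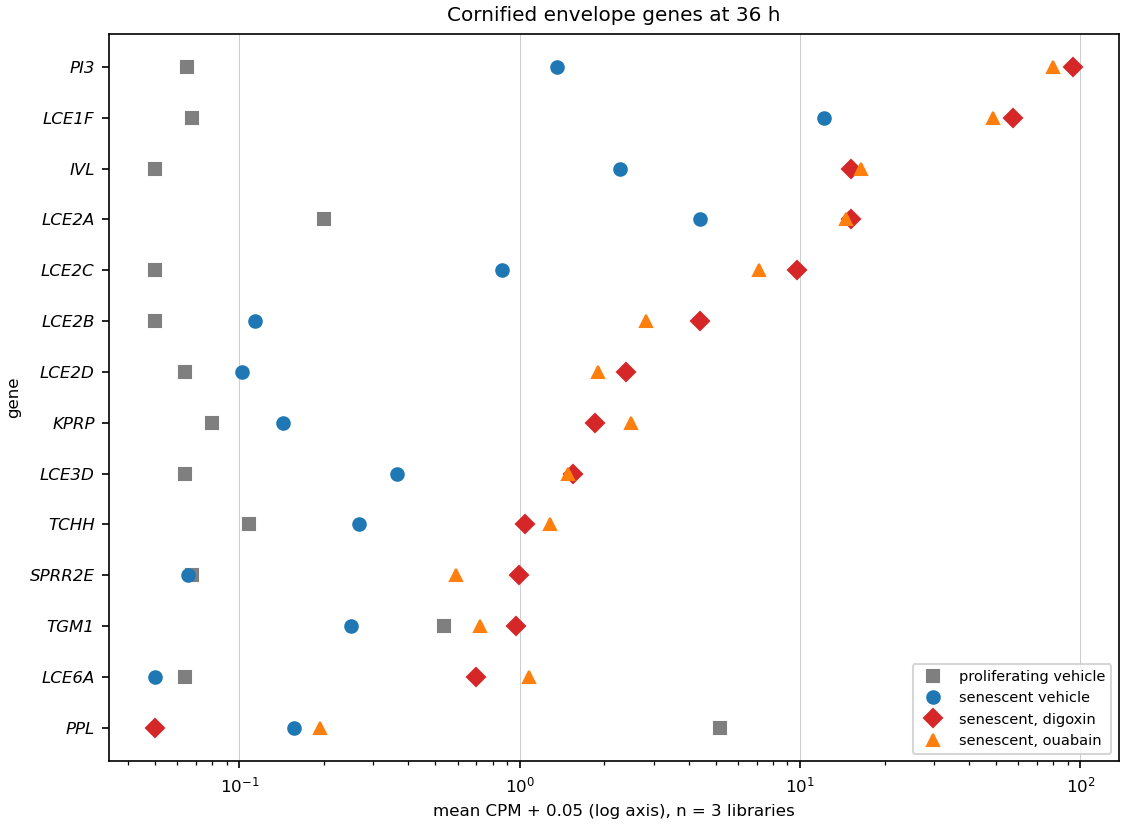
Mean CPM plus 0.05 (horizontal log axis, n = 3 libraries per point) of LCE1F and the 13 tested cornified envelope genes at 36 h in proliferating vehicle (grey squares), senescent vehicle (blue circles), digoxin (red diamonds) and ouabain (orange triangles) cells. Most genes lie lowest in proliferating cells and highest with a drug, PI3 reaching 93.9 CPM with digoxin. PPL, lower in senescent than in proliferating vehicle cells, does not follow this order, and 0 of the 13 genes were called lower with ouabain. The medians hide large differences in level between the genes.

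Of 12 other cystatins, 3 passed the filter and all 3 were called higher in senescent cells at 16 h, against 26.4% of all genes. CST2, with 0 proliferating counts, passed through the senescent groups and had to differ. CSTB, the cytosolic cystatin B, rose from 106 ± 19.5 to 171 ± 6.23 CPM (log2 0.69 ± 0.10, adjusted p = 3.84e-07) and CST3, the widely made cystatin C, from 64.1 ± 11.6 to 112 ± 12.5 CPM (log2 0.81 ± 0.10, adjusted p = 4.56e-08). CST2, the salivary cystatin SA, named after its values were seen, had 39 counts against 0, 12.4-fold higher on the floor of 3 counts. Of 10 tested cysteine cathepsins, the proteases that cystatins inhibit, 4 were higher and 5 lower in the same comparison, against 26.4% and 25.2% of all genes. CTSS, CTSB and CTSL rose by log2 3.57 ± 0.15, 1.74 ± 0.06 and 1.56 ± 0.11, and CTSF fell by 1.14 ± 0.13, with adjusted p-values of 1.87e-20, 5.53e-22, 1.34e-14 and 2.19e-09. With digoxin at 36 h 1 of the 3 cystatins, CSTB, rose and 0 fell, and 3 of the 10 cathepsins rose and 0 fell. The shares that rose were near the 31.6% of all genes, of which 32.4% fell.

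Of 17 tested genes of osteoclasts and cell fusion, 8 were higher and 2 lower in senescent cells at 16 h, against 26.4% and 25.2% of all genes, with a median log2 change of 0.59 (0.53 with bounds). Of the 17, 2 had at most 3 counts in the proliferating group. ITGB3, the integrin beta chain of osteoclasts, rose by log2 1.47 ± 0.14 (adjusted p = 9.78e-11), CD9, a tetraspanin at the cell surface, by 1.29 ± 0.10 (adjusted p = 2.75e-13), OSTM1, partner of a lysosomal chloride transporter, by 1.32 ± 0.09 (adjusted p = 6.3e-15) and TFEC, a MITF-related factor, by 0.98 ± 0.27 (adjusted p = 0.00235). With digoxin at 36 h 7 of the 17 rose and 3 fell, against 31.6% and 32.4% of all genes, and with ouabain 9 rose and 3 fell, against 30.2% and 30.8%. MITF, a transcription factor of osteoclasts and melanocytes named after its values were seen, was among those that fell, by 1.16 ± 0.09 on the log2 scale with digoxin (adjusted p = 1.32e-13) and by 1.19 ± 0.09 with ouabain (adjusted p = 6.66e-14).

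Of 22 tested V-ATPase subunits, 16 were higher and 2 lower in senescent cells at 16 h, against 26.4% and 25.2% of all genes, with a median log2 change of 0.76 against 0.01. ATP6V1B2, ATP6V1G1 and ATP6V0B rose by log2 1.51 ± 0.09, 1.40 ± 0.14 and 1.32 ± 0.10, with adjusted p-values of 8.72e-16, 3.18e-10 and 1.09e-13. ATP6V1G2, a subunit best known from neurons, fell by 1.43 ± 0.31 (adjusted p = 0.00019). With either drug at 36 h 15 of the 22 rose and 2 fell, with a median of 0.95, while ATP6V0D2 fell. Of all genes 31.6% rose and 32.4% fell with digoxin, and 30.2% and 30.8% with ouabain. ATP6V0D1, the widely made isoform of the same subunit and named after its values were seen, went from 181 ± 3.95 CPM with vehicle to 616 ± 15.2 CPM with digoxin and 660 ± 3.03 CPM with ouabain at 36 h.

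Of 9 tested genes of the AADAC family and of drug esterases, 2 were higher and 4 lower in senescent cells at 16 h. Of all genes 26.4% were higher and 25.2% lower, and the median log2 change of the 9 was -0.28. Of the 9, 1 had at most 3 counts in the proliferating group. A gene that passed the filter only through groups where it is high had to differ, so nothing is read from the count of higher genes. CES1, a liver carboxylesterase, had 152 counts against 0, 48.2-fold higher on the floor of 3 counts. NCEH1, a relative of AADAC that hydrolyses ether lipids, rose by log2 0.87 ± 0.08 (adjusted p = 5.93e-12). BCHE, the plasma cholinesterase, fell by 1.41 ± 0.21 (adjusted p = 6.39e-07) and PON2, a lactonase, by 0.33 ± 0.09 (adjusted p = 0.00184). With either drug at 36 h 2 rose and 4 fell, against 31.6% and 32.4% of all genes with digoxin and 30.2% and 30.8% with ouabain. CES1 was among those that rose, by log2 3.07 ± 0.15 with digoxin (adjusted p = 1.38e-17) to 38.1 ± 3.08 CPM, a direction opposite to that of AADAC in the same libraries.

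Related genes can share reads. The transcripts of CST1 and CST4 were 94.7% identical over 751 aligned bases, with a shared stretch of 152 bases, and CST2 was 91.3% identical to CST1 and 92.1% to CST4. How the authors' counting split such reads is not known, so the 2 cystatins are uncertain as separate genes. Across the 9 senescent groups CST1 gave 1.04 to 1.56 counts per count of CST4, and CST2 made up 6.32% to 12.2% of the counts of the 3 genes. LCE1F was 92.3% to 94.3% identical to the other 5 LCE1 genes, with shared stretches of 38 to 65 bases. Its neighbour LCE1E had 110 counts in all 36 libraries.

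The neighbours of the other genes were mostly quiet. KPRP, on the other side of LCE1F and itself an epidermal gene, had a mean of 0.0845 CPM in senescent cells at 16 h and 1.8 CPM with digoxin at 36 h. RIMS2 and DPYS beside DCSTAMP had means of 0.781 and 0.0786 CPM in senescent cells at 16 h. PSKH2 and SLC7A13 beside ATP6V0D2 had 4 and 25 counts in all libraries, and AADACL2 and SUCNR1 beside AADAC had 11 and 58. CST1 and CST4 are neighbours of each other, between CST2 and CST3. Mean levels in proliferating and senescent vehicle cells at 16 h were 64.1 and 112 CPM for CST3 and 0 and 0.651 CPM for CST2.

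Likeness of pattern was measured by Pearson's r of mean log2 CPM, as a description, since all groups share the step from proliferating to senescent cells. Over the 12 groups CST1 and CST4 were each other's closest gene (r = 0.998), and ATP6V0D2 was closest to CST4 (0.993) and CST1 (0.989). LCE1F was closest among named genes to BCL2A1 (0.996), an anti-apoptotic gene, DCSTAMP to MSRB3-AS1 (0.998) and LPXN (0.993), and AADAC to DHRS7 (0.994). Between LCE1F and DCSTAMP r was 0.848, the lowest of the pairs among the 6. Over the 9 senescent groups alone, where that step is left out, the closest genes were ULBP2 for LCE1F (0.992), SMARCA1 for DCSTAMP (0.997), IGHA2 for ATP6V0D2 (0.979), IL32 for CST1 (0.938), PRPF8 for CST4 (0.96) and CLU for AADAC (0.907). Within these 9 groups CST1 and CST4 were at r = 0.892 and ATP6V0D2 was at 0.797 with CST4, 0.591 with CST1 and 0.908 with DCSTAMP. LCE1F ran opposite to the other 5 genes, from -0.931 with ATP6V0D2 to -0.505 with AADAC, where over the 12 groups these r were 0.92 and 0.946.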

How the data were processed

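RNA of IMR90 ER:RAS cells was sequenced in 36 libraries, 12 groups of 3, prepared with Illumina's stranded kit for mRNA, per the labels' protocols. The authors deposited unnormalized counts for each gene, made with featureCounts after alignment to hg19 with TopHat2 2.0.11, per the submitters' processing notes. What version, strand setting and annotation featureCounts used is not given in the sources used here, so reads of overlapping or antisense genes cannot be told apart. Of 57232 Ensembl genes 10690 had no count. Library totals were 10854351 to 21446415 counts. Where a group of 3 had a count of 0, a floor of 3 counts over the group took its place in ratios.

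From these counts, genes were filtered with filterByExpr by group (18696 tested), given TMM factors and modelled by quasi-likelihood in 1 fit of 12 groups in edgeR 4.0.16 (limma 3.58.1, R 4.3.3). A gene was called at a Benjamini-Hochberg adjusted p under 0.05 over all 18696 genes, in 15 pairwise comparisons and 2 differences of effects. Log CPM used a prior count of 2. Counting intervals are 95%. The model was also run on simulated data. These held far fewer changed genes than the real comparisons, so the run cannot check the scaling, and nothing is read from it. Alternatives were DESeq2 1.42.0, RLE size factors within edgeR, library size only, no filter, a replicate block, the compared groups alone, leaving out each of 36 libraries, a floor of 1 count and, chosen after seeing the data, leaving out the 2 most deviating libraries together.

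The 6 genes and the lists were chosen with earlier results of these data known. Named besides them are a panel that checks the labels and, per list, up to 4 called genes with the largest log2 change at 16 h in senescent against proliferating cells and at least 1 CPM. Also named are neighbours and genes of like pattern, up to 3 per gene, of which some are left out, and genes stated as named after their values were seen. Of the list genes 1 could not be matched. Symbols, lengths and transcripts came from GENCODE, gene order and promoters from RefSeq (GRCh38.p14). Figures were drawn with matplotlib 3.10.9.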

Additional observations from a re-analysis of the deposited data

Results flagged for a closer look

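For 8 values the drug effect differed between 36 h and 16 h by the test of the difference itself, edgeR's quasi-likelihood test adjusted over all genes. With digoxin the log2 effect at 36 h minus that at 16 h was 0.74 for LCE1F, -1.98 for DCSTAMP, -0.60 for ATP6V0D2, -1.03 for CST1 and -1.23 for AADAC. With ouabain it was 0.59 for LCE1F, -2.0 for DCSTAMP and -1.10 for CST4. The digoxin and ouabain effects share their vehicle libraries, so their likeness is not independent. For CST1 the digoxin libraries themselves stood at 4.49 CPM at 16 h and 4.32 CPM at 36 h, and the vehicle libraries at 4.58 and 8.94 CPM. For DCSTAMP the vehicle libraries stood at 6.0 and 7.27 CPM and the digoxin libraries at 6.22 and 1.91 CPM.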

How the results depend on the processing

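Of 1320 values of single genes under the alternatives, 0 reversed a called direction, 34 lost a call, 30 gained one, 1174 kept both and 82 uncalled values changed sign. The number of the 6 genes called moved from 2 to 1 with digoxin at 16 h under no filter (range without 1 library 1 to 2), and from 2 to 1 with ouabain at 16 h in the compared groups alone (1 to 2). For ouabain against digoxin with the inhibitor it moved from 0 to 1 with RLE, the replicate block, the compared groups alone and DESeq2. For 36 h against 16 h in vehicle it moved from 1 to 2 with no filter and 3 in the compared groups alone (0 to 1). For the inhibitor in vehicle cells it moved from 1 to 3 in the compared groups alone. Without 1 library it ranged from 2 to 4 for 36 h against 16 h with ouabain, 0 to 1 for the inhibitor with digoxin and 3 to 5 for the difference of ouabain effects. The cornified envelope count moved from 7 to 11 with no filter. The cause of these moves was not tested.

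The median log2 ratio of the 6 genes, senescent over proliferating, was 7.70 at 16 h (8.01 with a floor of 1 count, 7.53 without the 2 deviating libraries, 6.42 to 7.69 without 1 library). At 36 h it was 8.96 (8.80 by library size only, 6.82 to 9.04 without 1 library), and with the inhibitor 6.99 (6.83 by library size only, 7.41 with a floor of 1 count, 6.32 to 7.10 without 1 library). These ratios rest on 0 to 10 proliferating counts per group, which is the limit of depth here.

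Scaling by library size only moved the median log2 change of all genes from -0.02 to -0.34 with digoxin and from 0.00 to -0.23 with ouabain at 36 h, and at 16 h from 0.02 to -0.29 and -0.26. The split of higher and lower calls moved from 5909 and 6054 to 4278 and 8406 with digoxin at 36 h, from 5642 and 5761 to 4348 and 7575 with ouabain at 36 h, and from 4945 and 4706 to 3849 and 5592 for senescence at 16 h. It added calls of lower ATP6V0D2 (log2 -0.48) and CST4 (-0.67) with digoxin at 16 h and of lower AADAC with ouabain at 36 h (-0.64). It also added calls of lower CST1 (-0.79) and AADAC (-0.69) with digoxin and the inhibitor.

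Counts over all genes moved by over 1.5 times in the 7 comparisons that follow. In the compared groups alone they went from 923 to 3 for ouabain against digoxin at 16 h, from 1003 to 2064 at 36 h and from 271 to 840 with the inhibitor, where DESeq2 gave 496. They went from 287 to 1063 for time in vehicle and, for the inhibitor, from 1385 to 5531 with vehicle (668 with no filter), from 164 to 382 with digoxin (304 in DESeq2) and from 1662 to 2666 with ouabain. Leaving out 1 library moved them as well, to 142 to 1700, 394 to 666 and 91 to 314 for the 3 pairs of drugs, 130 to 148 for time in vehicle, and 547 to 895, 95 to 117 and 776 to 1251 for the inhibitor with vehicle, digoxin and ouabain. The moves over 1.5 times came with any library for the drug pairs at 16 h and 36 h, time in vehicle and the inhibitor with vehicle. For the pair with the inhibitor they came with all but replicate 2 of digoxin, for the inhibitor with digoxin with replicates 1 and 2 of both groups, and for the inhibitor with ouabain with replicate 1 of ouabain alone and replicates 1 and 2 of ouabain with the inhibitor. Replicate numbers gave little sign of pairing. Correlations of same-numbered libraries ran from -0.11 to 0.26 and in 0 of 18 comparisons were all above 0.1. Weak correlations do not show that the libraries are unpaired, and the labels do not tell. The replicate block called 1 of the 6 genes for ouabain against digoxin with the inhibitor (LCE1F, log2 -0.41), and also CST1 with digoxin and the inhibitor (-0.56) and for the difference of ouabain effects (-0.86).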
